A study of Mus musculus with 4 samples.

Results

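Dendritic cells and macrophages of mouse melanomas that had received an adenovirus for a CD40 ligand (Ad-MEM40) were compared with those of melanomas that had received an empty adenovirus (Ad-Null). The members were all cell barcodes of these 2 libraries in which 500 genes or more were detected and no more than 10% of the unique molecular identifiers (UMIs) were mitochondrial. These were 24401 of the 26882 barcodes that passed the same filter in the whole series, 15656 of Ad-MEM40 and 8745 of Ad-Null. The series also holds a virus for interferon beta (Ad-mIFNB) and a combination of both agents (Ad-COMBO).

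Both groups were C57BL/6 mice without a stated genetic change, inoculated under the skin with 500000 B16-F10 cells, a transplantable mouse melanoma line. On day 12 the Ad-MEM40 tumors were injected with a virus whose treatment label names ISF35, an engineered membrane-bound CD40 ligand, and the Ad-Null tumors with a virus labelled as null. Each library was made from the pooled cells of 3 tumors, sorted for CD11c and MHC class II after perfusion and enzyme digestion, and the interval from injection to harvest was not given in the sources used here. With 1 library a side there is no replicate, so every difference below compares these libraries, and no p-value or spread between animals can be given. Intervals cover counting error only.

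CD40 is a receptor of the tumor necrosis factor receptor family on dendritic cells, macrophages and B cells. Its ligand, carried mainly by activated helper T cells, clusters the receptor, which recruits TRAF adaptors and starts canonical and non-canonical NF-kB signaling. In dendritic cells this is known to raise costimulatory ligands and interleukin-12 and to prepare the cell for priming CD8+ T cells, a step called licensing.

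The Ad-MEM40 library held 181854752 UMIs in passing barcodes with a median of 9483 per barcode, and the Ad-Null library held 160828179 with a median of 15277. Because detection depends on depth, levels are given as the summed UMIs of a gene scaled to a total of 1000000 (CPM), and shares of barcodes with a UMI are given after each barcode was thinned to 2000 UMIs. A log2 ratio is that of Ad-MEM40 over Ad-Null with 5 CPM added to both sides, which understates the difference of low genes. A gene is called higher or lower past 1.5-fold. A gene was measured if it averaged at least 5 CPM and had at least 50 UMIs over both libraries. The 2 libraries shared 41 passing barcode sequences.

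The vector gene was traced first. Cd40lg, the mouse CD40 ligand gene, had 91 UMIs in 28 passing barcodes of Ad-MEM40, which was 0.500 CPM (exact Poisson interval 0.403 to 0.614), and 1 UMI in Ad-Null, which was 0.00622 CPM. Of these libraries, Ad-MEM40 thus held nearly all UMIs of the gene, although reads at the 3′ end may miss an engineered ligand. The smaller Ad-COMBO library, labelled with both agents, had 0 in passing barcodes, with an interval up to 0.378 CPM. Of the 91 UMIs, 49 lay in 11 barcodes that met the C1q gate described below and no other gate, with 27 in 1 of them. Another 30 lay in 6 barcodes that met no gate, with 21 in 1 of them. The rest were 9 in 8 barcodes that met more than 1 gate and 3 in 3 barcodes of the mature DC gate. Counted across these groups, which it overlaps, a set of 7 barcodes with at least 1000 CPM of melanoma markers held 64 of the 91. None lay in barcodes that met the cDC1 gate or the Cd209a gate alone.

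Promoters are shown for 4 genes named in the results below. Saa3 had the highest ratio over all barcodes and Cxcl2 the highest in barcodes with cDC1 genes, while Cxcl1 and Nfkbia were picked after the motif search had been seen. The highest genes of the other gates, Col3a1, Ptgds and Cck, were not shown because few barcodes held most of their UMIs. Each line gives the 150 bases before the RefSeq start (assembly GRCm38.p6), 5′ to 3′ on the strand of the gene, and capitals mark matches on either strand to an NF-kB form of 3 G, any 3 bases, 2 T and 2 C. Saa3 held none in this window. The windows are chr7:46715677-46715826 on the minus strand for Saa3, chr5:90903749-90903898 on the plus strand for Cxcl2, chr5:90891095-90891244 on the plus strand for Cxcl1, and chr12:55492648-55492797 on the minus strand for Nfkbia.
Saa3: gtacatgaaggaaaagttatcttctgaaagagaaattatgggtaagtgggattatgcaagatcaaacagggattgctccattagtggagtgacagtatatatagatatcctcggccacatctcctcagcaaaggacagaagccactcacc
Cxcl2: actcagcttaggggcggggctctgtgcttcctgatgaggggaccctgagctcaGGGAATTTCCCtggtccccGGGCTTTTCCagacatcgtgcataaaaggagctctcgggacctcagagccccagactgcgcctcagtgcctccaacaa
Cxcl1: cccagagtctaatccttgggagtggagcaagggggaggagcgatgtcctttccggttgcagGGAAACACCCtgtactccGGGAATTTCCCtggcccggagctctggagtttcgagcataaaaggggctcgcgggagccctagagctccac
Nfkbia: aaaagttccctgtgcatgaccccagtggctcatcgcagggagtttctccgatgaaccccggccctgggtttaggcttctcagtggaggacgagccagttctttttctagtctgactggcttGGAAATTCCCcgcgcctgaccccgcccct
In Cxcl1 and Cxcl2 the capitals include a stretch that matches on both strands at overlapping positions and is counted once for each. Over the 250 bases before the start, 3 of the 7 highest genes of the cDC1 barcodes with a promoter entry held the form (Cxcl2, Nfkbia and Tnfaip3), against 5.31% of 27025 mouse genes. It was held by 0 of 11 of the genes highest over all barcodes, by 5 of 30 over all lists of highest genes and by 0 of 13 over all lists of lowest genes. The interferon-stimulated response element was searched for likewise and was held by 2 of 30 of the highest and 0 of 13 of the lowest genes, against 3.46% of all, and the gamma-activated sequence by 1 of 30 and 3 of 13, against 8.13%. A match is a run of letters and not a measured binding site, and these counts come from few genes. The genes were picked by their ratios in these same data. Among them, Cxcl2 was within 1.5-fold in the cDC1 barcodes once those with the highest doublet scores were left out, as given below.

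Barcodes were then gated by marker UMIs. The cDC1 gate asked for Xcr1 and Clec9a, which mark the conventional dendritic cells that cross-present antigen. The Cd209a gate asked for that lectin, which is high in cDC2 and monocyte-derived dendritic cells. The mature DC gate asked for Ccr7, the receptor that guides dendritic cells to lymph nodes, and for Fscn1, an actin bundler. The C1q gate asked for C1qa, C1qb and C1qc, the complement subunits of macrophages. A barcode that met more than 1 gate was kept out of all 4. Such barcodes were 1940 in Ad-MEM40 and 1162 in Ad-Null, and 5440 and 2759 met no gate. Both the mature DC and the C1q gate were met by 765 barcodes in Ad-MEM40 and 273 in Ad-Null. The mature DC gate thus leaves out many barcodes that had Ccr7 and Fscn1.

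The C1q gate held a larger share of the Ad-MEM40 library and the Cd209a gate a smaller one. C1q barcodes were 4531 in Ad-MEM40 and 1721 in Ad-Null, or 28.9% and 19.7%. Cd209a barcodes were 1753 in Ad-MEM40 and 1860 in Ad-Null, or 11.2% and 21.3%. Mature DC barcodes were 763 (4.87%) in Ad-MEM40 and 337 (3.85%) in Ad-Null, and cDC1 barcodes were 1229 (7.85%) and 906 (10.4%). After thinning, the shares in Ad-MEM40 and Ad-Null were 27.3% and 17.7% for C1q, 7.77% and 14.0% for Cd209a, 4.50% and 3.33% for mature DC, and 1.94% and 2.11% for cDC1. The C1q and Cd209a differences thus stood at equal depth, the mature DC intervals did not overlap, and the cDC1 intervals did. Median UMIs per barcode in Ad-MEM40 and Ad-Null were 13034 and 21221.5 in the cDC1 gate, 9203 and 14936 in the Cd209a gate, 6622 and 12061 in the mature DC gate, and 10491 and 16864 in the C1q gate. Shares within 1 sort move against each other, so a larger share of 1 class lowers the others.

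**Figure D1:**
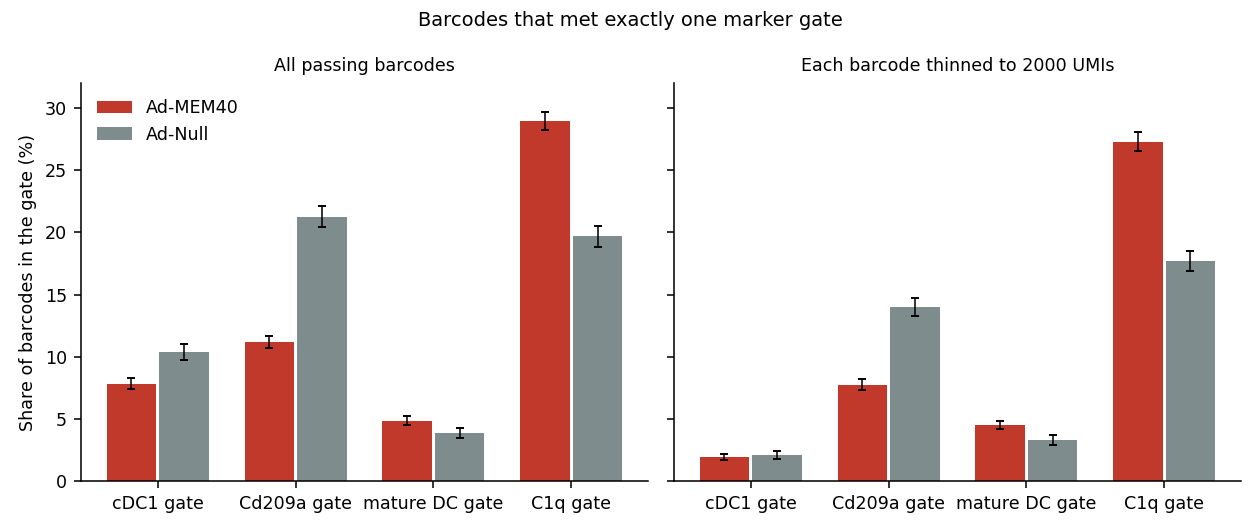
Share of passing barcodes (%) that met exactly 1 marker gate, in Ad-MEM40 (red, left bar of each pair) and Ad-Null (grey), unthinned on the left and with each barcode thinned to 2000 UMIs on the right. Error bars are exact 95% Clopper-Pearson intervals for counting error. In both panels the C1q gate was larger in Ad-MEM40 and the Cd209a gate was smaller, whereas the cDC1 bars overlapped after thinning.

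Marker sums differed between the gates, most clearly for 3 of them. The 14 cDC1 markers that were not used for gating summed to 7464 CPM in Ad-MEM40 and 7412 CPM in Ad-Null inside the cDC1 gate, against 1163 and 1099 CPM in the C1q gate. The 12 mature DC markers summed to 4634 CPM in Ad-MEM40 and 4516 CPM in Ad-Null inside the mature DC gate, and to 425 CPM or less in each of the others. The 14 macrophage markers summed to 5917 and 4811 CPM inside the C1q gate. The Cd209a gate was less distinct, since its 12 cDC2 markers summed to 2427 CPM in Ad-MEM40 and 2482 CPM in Ad-Null, against 1687 and 1769 CPM in the C1q gate, and its 9 monocyte markers to 2760 and 2483 CPM. Cells of other kinds were present too. The 9 melanoma markers summed to 1253 CPM in Ad-MEM40 and 769.9 CPM in Ad-Null over all barcodes, and to 2784 and 1747 CPM inside the mature DC gate, with none of the 9 at 0. The 8 fibroblast markers summed to 138 CPM in Ad-MEM40 and 47.2 CPM in Ad-Null over all barcodes. Few barcodes held such genes. Col1a2 UMIs lay in 104 Ad-MEM40 barcodes, with 1009 of 2962 in 1, and in 40 Ad-Null barcodes, with 436 of 719 in 1. Barcodes with at least 1000 CPM of melanoma markers were 3.50% of Ad-MEM40 and 2.13% of Ad-Null. Neutrophil, mast cell or basophil, B cell and erythroid markers summed to 14.7 CPM or less in either library. T or NK cell markers summed to 131 CPM in Ad-MEM40 and 165 CPM in Ad-Null, and endothelial markers to 42.1 and 36.9 CPM. Most of the T or NK sum was its lone measured member, at 106 CPM in Ad-MEM40 and 156 CPM in Ad-Null. Of the 12 T or NK markers 10 were higher in Ad-MEM40 at any size. Monocyte markers summed to 1851 and 1855 CPM, cDC2 markers to 1550 and 1675 CPM, and plasmacytoid dendritic cell markers to 209 and 320 CPM.

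Over all barcodes the named genes with the highest ratio were Saa3 and Acod1, and the named gene with the lowest was a histone gene. Of 9223 measured genes, 120 were higher (1.3% of those measured) and 56 were lower (0.607%), and the median log2 ratio was 0.04. Sums over all barcodes cannot tell a different mix of cells from a different level per cell. With both libraries weighted to the gate shares of Ad-Null, 59 genes were higher. By list, 9 of 14 lipid-associated genes (median log2 ratio 0.70), 8 of 21 acute-phase and inflammatory myeloid genes (0.41) and 4 of 4 measured fibroblast markers (1.18) were higher, and 0 of each were lower.

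Saa3, an acute-phase serum amyloid protein made by activated macrophages (ENSMUSG00000040026, chr7:46711998-46715700 of GRCm38), led the higher genes. It stood at 73.8 CPM in Ad-MEM40 and 20.5 CPM in Ad-Null, a log2 ratio of 1.63, and at 1.40 with the Ad-Null gate shares. A Saa3 UMI was found in 4.07% of thinned Ad-MEM40 barcodes and in 1.10% of Ad-Null barcodes, against a background in the cDC1 gate of 1.31% and 0.663%. Acod1, which makes the antimicrobial metabolite itaconate, had 49.6 and 13.4 CPM in Ad-MEM40 and Ad-Null. The complement gene C3 had 37.0 and 12.0 CPM, and the chemokine gene Ccl8, a ligand known to attract monocytes, had 319 and 149 CPM. Cbr2, Clec4d, Clec4e, Ly6i, Blvrb, Slc7a11 and Folr2 had ratios between 1.06 and 1.40. Sparc, a matrix protein gene of the fibroblast list, had a ratio of 1.25.

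The UMIs of these genes were spread over many barcodes to different degrees. Acod1 UMIs lay in 2948 Ad-MEM40 barcodes with at most 49 in any of them, and in 656 Ad-Null barcodes with at most 44. Saa3 was more uneven, since the top 1% of barcodes held 75.8% of its UMIs in Ad-MEM40 and 91.2% in Ad-Null. Barcodes under 500 genes were looked at as a view of free RNA, although they may hold damaged or small cells. In barcodes under 500 genes, Saa3 stood at 94.2 CPM in Ad-MEM40 and 46.9 CPM in Ad-Null and Ccl8 at 307 and 157 CPM, so low levels of these genes outside the C1q gate are not read as expression.

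The genes lower in Ad-MEM40 were led by Hist1h2ap, a histone H2A gene, at 270 CPM against 725 CPM in Ad-Null, a log2 ratio of -1.41. Ccl17, a chemokine gene of cDC2 and mature dendritic cells whose product attracts cells with CCR4, had 30.3 CPM in Ad-MEM40 and 68.1 CPM in Ad-Null. Genes of plasmacytoid dendritic cells were lower as well. Siglech had 14.3 and 35.1 CPM in Ad-MEM40 and Ad-Null, Klk1 had 14.1 and 30.8 CPM, and Ccr9 had 15.5 and 32.6 CPM, and 4 of the 10 markers of that cell type were past 1.5-fold. H2-DMb2, a chaperone subunit for loading MHC class II, had 67.5 and 129 CPM, the lone member past 1.5-fold of the 15 measured in the MHC class II list.

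**Figure D2:**
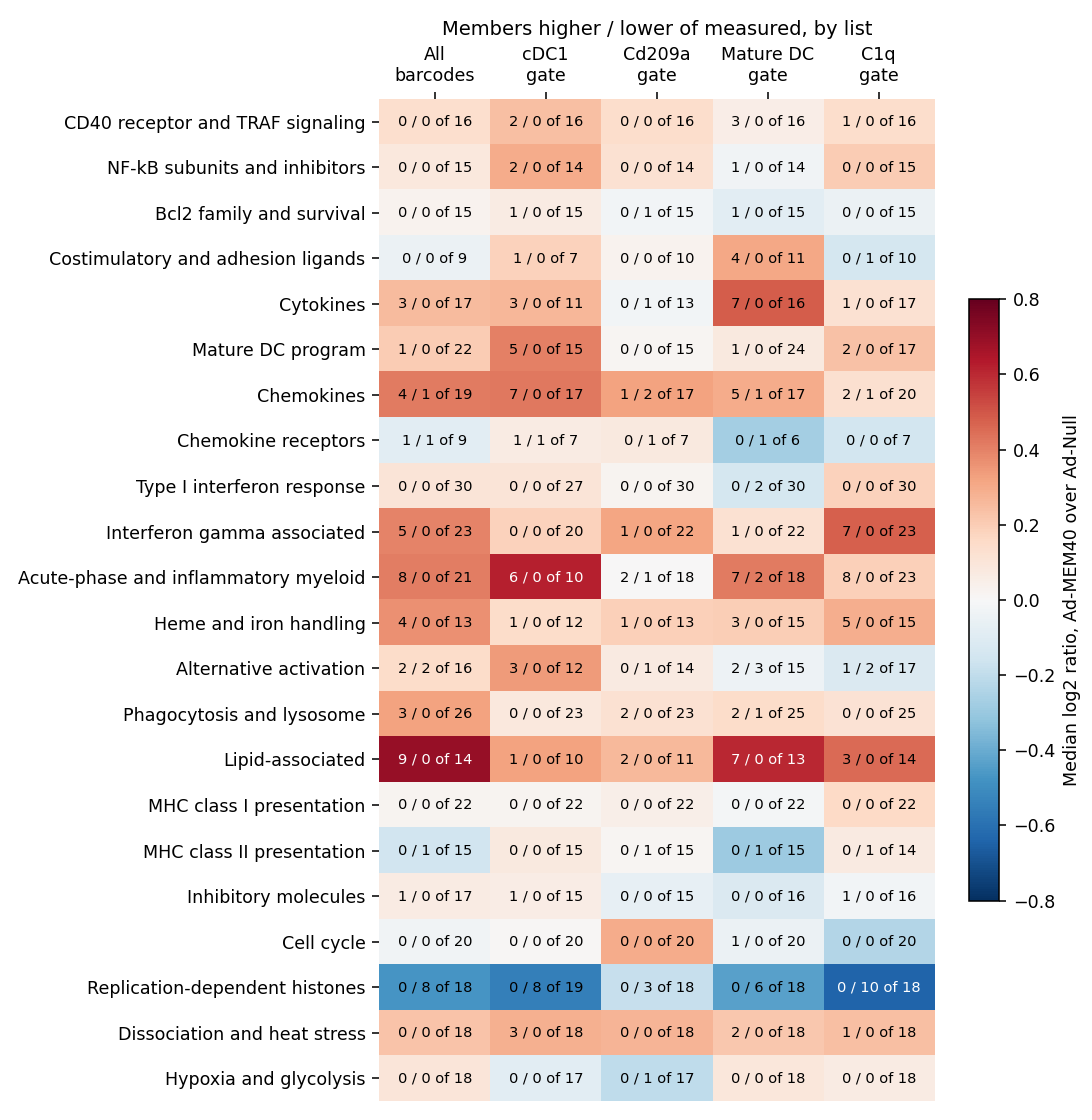
Members of 22 gene lists in all barcodes and in each gate, as members higher / lower in Ad-MEM40 past 1.5-fold of those measured, with colour for the median log2 ratio of Ad-MEM40 over Ad-Null. Lipid-associated genes over all barcodes (9 of 14 higher), acute-phase genes in the cDC1 gate (6 of 10), cytokines in the mature DC gate (7 of 16), interferon gamma genes in the C1q gate (7 of 23) and histones in all columns (3 to 10 lower) are among the larger shares, whereas type I interferon and MHC class I lists hold 0 higher genes in every column.

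In the mature DC gate, Ad-MEM40 cells carried more of several CD40-linked ligands and cytokines. Here 285 of 9264 measured genes were higher (3.08%) and 96 were lower (1.04%). Of the 11 measured costimulatory and adhesion ligands 4 were higher and 0 lower, with a median log2 ratio of 0.31, and of 16 cytokines 7 were higher and 0 lower, with a median of 0.49, against a median of 0.04 over all genes of the gate.

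Cd70, the ligand of CD27 on T cells (chr17:57145997-57149777), was the costimulatory gene with the highest ratio. It had 756 UMIs, or 110 CPM (interval 103 to 119), in Ad-MEM40 and 100 UMIs, or 18.8 CPM (15.3 to 22.8), in Ad-Null, a log2 ratio of 2.28. Those UMIs lay in 187 of 763 Ad-MEM40 barcodes and 55 of 337 Ad-Null barcodes, and after thinning 15.4% and 3.96% of barcodes had one. In the Cd209a gate, whose cells had little of the gene, the thinned share was 0% in both libraries, which allows up to 0.177% in Ad-MEM40 and 0.164% in Ad-Null. Without the 1% of barcodes with the most Cd70 the levels were 84.6 and 14.9 CPM, so a few cells did not carry the difference. Over the whole Ad-MEM40 library 52.4% of Cd70 UMIs lay in the mature DC gate and 37.0% in barcodes with more than 1 gate.

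The other ligands of the list were closer. Icam1, an adhesion ligand for T cells, had 238 CPM in Ad-MEM40 and 148 CPM in Ad-Null. Tnfsf9, the ligand of 4-1BB, had 186 and 116 CPM, and Slamf1 had 15.6 and 6.57 CPM. Cd86 stood at 296 and 238 CPM, Cd80 at 137 and 128 CPM, and Cd83 at 470 and 526 CPM, all within 1.5-fold. The receptor gene Cd40 itself had 312 CPM in Ad-MEM40 and 160 CPM in Ad-Null, and 37.3% and 26.2% of thinned barcodes had a UMI, against 5.23% and 4.75% in the cDC1 gate, the lowest. Of the 16 genes of CD40 and TRAF signaling, Cd40, Tnip1 and Tnfaip3 were higher and 0 were lower, with a median log2 ratio of 0.05.

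Among cytokines, Il12b, the p40 subunit shared by interleukin-12 and interleukin-23, had 836 CPM in Ad-MEM40 and 460 CPM in Ad-Null, with a UMI in 32.9% and 25.9% of thinned barcodes, against 1.65% and 1.31% in the Cd209a gate. Ebi3, a subunit of interleukin-27, had 142 and 52.0 CPM, and its partner Il27 had 26.4 and 9.58 CPM. Tnf had 146 and 79.5 CPM, Il6 had 41.6 and 21.4 CPM, and Il1b had 1077 and 639 CPM. Il12a, the subunit that completes interleukin-12, was too low to be measured, with 1.75 CPM in Ad-MEM40 and 0.564 CPM in Ad-Null. Il23a had 24.1 and 1.88 CPM, but 65 of its 165 Ad-MEM40 UMIs lay in 1 barcode, and without the top 1% of barcodes its ratio was 0.41.

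**Figure D3:**
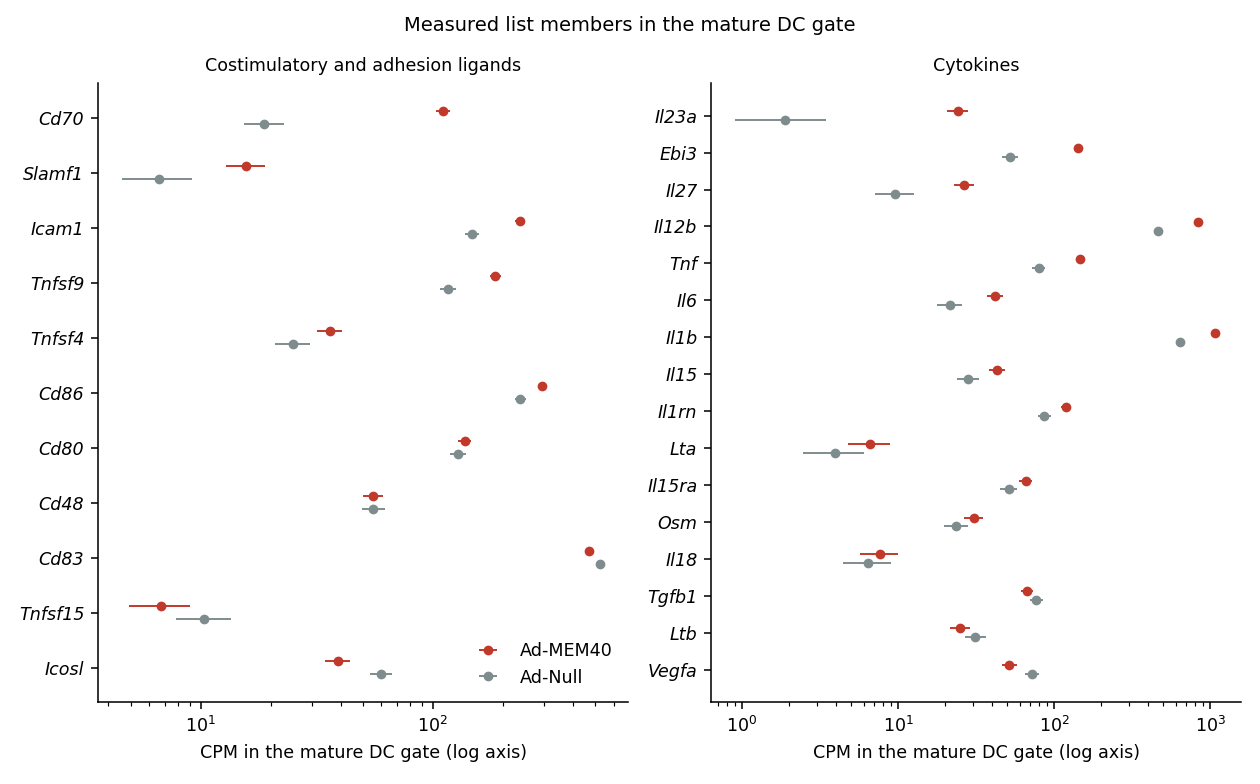
CPM on a log axis of each measured costimulatory or adhesion ligand (left) and cytokine (right) in the mature DC gate, for Ad-MEM40 (red, upper point) and Ad-Null (grey, lower point), with exact 95% Poisson intervals. Cd70 (110 against 18.8 CPM) and Ebi3 (142 against 52.0 CPM) lie well apart, whereas Cd80 (137 against 128 CPM) and Cd83 (470 against 526 CPM) lie close together.

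Other genes of the mature DC gate were further apart than most cytokines. Cxcl1, a ligand of the neutrophil receptor CXCR2, had 137 CPM in Ad-MEM40 and 20.7 CPM in Ad-Null, a log2 ratio of 2.47, with a UMI in 12.1% and 2.44% of thinned barcodes, against 1.47% and 1.10% in the cDC1 gate. In the C1q gate, where Cxcl1 was also expressed, the levels were 206 and 151 CPM, within 1.5-fold. Procr, the endothelial protein C receptor, had 175 and 33.4 CPM in the mature DC gate, in 258 Ad-MEM40 and 89 Ad-Null barcodes. Plat, tissue plasminogen activator, had 50.0 and 6.95 CPM. Ethe1, a mitochondrial sulfur dioxygenase, had 50.4 and 9.77 CPM, and the lectin gene Clec4e had 55.1 and 12.4 CPM. In barcodes under 500 genes Clec4e stood at 47.1 CPM in Ad-MEM40 and 20.1 CPM in Ad-Null. The part of RNA from other cells in its level was not tested. Bcl2l1, which encodes the survival protein Bcl-xL, had a log2 ratio of 1.07 and was the lone higher gene of 15 in the Bcl2 family list.

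The general program of mature dendritic cells differed little between the libraries. Of its 24 genes 1 was higher (Serpinb6b, at 687 and 442 CPM in Ad-MEM40 and Ad-Null) and 0 were lower, with a median log2 ratio of 0.08. Ccl22, a chemokine gene typical of this state, had 854 CPM in Ad-MEM40 and 593 CPM in Ad-Null, with a UMI in 46.7% and 47.3% of thinned barcodes. In the cDC1 gate those shares were 2.61% and 1.10%. Il4i1, an amino acid oxidase, had 386 and 452 CPM. Ccl17 differed the other way from most chemokines, at 81.8 CPM in Ad-MEM40 and 202 CPM in Ad-Null. Aldh1a2, which makes retinoic acid, had 15.8 and 37.0 CPM, and Adam23 and Car2 were lower with ratios of -1.05 and -0.97. Mgl2, a lectin of cDC2, had 37.3 and 78.3 CPM.

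Some genes of this gate rested on single barcodes. Of 441 Col3a1 UMIs in Ad-MEM40, 436 lay in 1 barcode, as did 322 of 324 Col1a2 UMIs, and of 704 Cck UMIs in Ad-Null 702 lay in 1 barcode. F3 had 14.6 CPM in Ad-MEM40 and 35.3 CPM in Ad-Null, and its ratio of -1.04 became 0.31 without the top 1% of barcodes. Melanoma markers were higher in the Ad-MEM40 side of this gate, as given above. Without the barcodes that had at least 1000 CPM of melanoma or fibroblast markers, the ratios were 2.44 for Cd70, 2.59 for Cxcl1, 2.36 for Procr, 2.43 for Plat, 1.49 for Ebi3 and 0.98 for Il12b, larger than with them in each case. Of the 285 higher genes 141 were past 1.5-fold without those barcodes, and the lipid exporter gene Abca1 had 0.43 in place of 0.81. With barcodes of more than 1 gate kept, several calls of the mature DC gate were lost. The ratios were then 0.50 for Tnf, 0.24 for Il6, 0.35 for Il1b, 0.46 for Tnfsf9, 0.43 for Serpinb6b, 0.56 for Bcl2l1 and -0.34 for Aldh1a2. Cd70, Icam1, Slamf1, Cd40, Il12b, Ebi3, Il27, Cxcl1, Procr and Plat were past 1.5-fold under every alternative tried.

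In the cDC1 gate, Nfkbia, Tnfaip3 and Traf1, which encode an inhibitor, a brake and an adaptor of NF-kB signaling, were among the highest genes of Ad-MEM40 and stayed past 1.5-fold under every alternative tried. Here 61 of 8578 measured genes were higher (0.711%) and 46 were lower (0.536%), with a median log2 ratio of 0.02. Nfkbia, which encodes the inhibitor that NF-kB induces against itself (chr12:55489410-55492647), had 640 CPM in Ad-MEM40 and 285 CPM in Ad-Null, a log2 ratio of 1.15, in 1120 of 1229 and 795 of 906 barcodes. Tnfaip3, which encodes the ubiquitin-editing enzyme A20 that dampens NF-kB, had 135 and 59.5 CPM. Traf1, an adaptor of the CD40 receptor complex, had 191 and 94.0 CPM. Rgs1 and Cd81 had ratios of 0.92 and 0.88. The top 5 barcodes held 3.65% of the Nfkbia UMIs of Ad-MEM40 and 7.31% of those of Ad-Null, so many cells carried the difference.

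Of the 16 CD40 and TRAF genes 2 were higher in the cDC1 gate (Tnfaip3 and Traf1), with a median log2 ratio of 0.24, and of 14 NF-kB genes 2 were higher (Nfkbia and Nfkbiz), with a median of 0.29. Of 17 chemokines 7 were higher, with Cxcl2, a ligand of CXCR2, at 228 CPM in Ad-MEM40 and 81.0 CPM in Ad-Null. Il12b had 42.4 and 21.7 CPM, Tnf had 53.3 and 30.0 CPM, and Ccl22 had 19.3 and 9.12 CPM. In barcodes under 500 genes Il12b stood at 96.5 and 46.9 CPM and Ccl22 at 118 and 49.4 CPM, above their levels here. The part of RNA from other cells in these values was not tested. With barcodes of more than 1 gate kept, Tnf had a ratio of 0.51, Ccl22 of 0.53 and Nfkbiz of 0.48, and with barcodes weighted equally Il12b had 0.34. Cd40 stood at 32.5 and 22.3 CPM, within 1.5-fold. The cDC1 markers themselves were alike, with Irf8, the factor this lineage needs, at 2053 and 1922 CPM and 0 of 14 past 1.5-fold.

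Macrophage genes differed along with these in the cDC1 gate. The 14 macrophage markers summed to 871 CPM in Ad-MEM40 and 717 CPM in Ad-Null, 13 of them higher in Ad-MEM40 at any size, none at 0, and Apoe, the lipid carrier of macrophages, had 84.4 and 32.5 CPM. Without the barcodes of the highest doublet scores 23 genes were higher. The ratios were then 1.08 for Nfkbia, 1.07 for Tnfaip3 and 0.95 for Traf1, but 0.53 for Cxcl2, 0.58 for Apoe, 0.44 for Pf4 and 0.07 for Arg1, which had been 1.44, 1.25, 1.20 and 1.14. Of the 7 higher chemokines only Ccl8 (0.99) and Ccl22 (0.66) were then past 1.5-fold. Both stood higher in barcodes under 500 genes than in this gate, as given above, so neither is read as expression here. Of the 10 measured acute-phase and inflammatory myeloid genes 6 had been higher, with a median of 0.62. Without the barcodes of the highest doublet scores Clec4e had 0.45, Ptgs2 0.24, Il1rn 0.11, Cfb 0.41 and Cd14 0.093. The thinned share of cDC1 barcodes with a Cxcl2 UMI was 16.6% in Ad-MEM40 and 6.08% in Ad-Null, but this gate had the lowest Cxcl2 level of the 4, so its share is the background of the others and is not read as expression. The part of free or mixed-in macrophage RNA in Cxcl2 and Apoe was not tested.

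The Cd209a gate differed least. Of 8677 measured genes 30 were higher (0.346%) and 44 were lower (0.507%), or 23 and 58 with median-ratio scaling. Ccl17 was the lowest, at 40.1 CPM in Ad-MEM40 and 107 CPM in Ad-Null, a log2 ratio of -1.32, with a UMI in 2.89% and 6.13% of thinned barcodes, against 0.929% and 1.73% in the C1q gate. AW112010, a transcript inducible by interferon gamma, had 134 and 73.4 CPM. None of the CD40 and TRAF genes, none of the NF-kB genes and none of the 10 costimulatory ligands was past 1.5-fold, and Traf1, Tnfaip3 and Nfkbia had ratios of 0.32, 0.37 and 0.36. Vegfa, the angiogenic factor, had 20.2 and 36.7 CPM, and Qpct, a glutaminyl cyclase, had 28.4 and 55.3 CPM. Ptgds, the highest gene at a ratio of 1.21, had 75.2% of its Ad-MEM40 UMIs in 5 barcodes, and its ratio was -0.25 when at least 2 UMIs of Cd209a were asked for. The cDC2 lectins Mgl2 and Clec10a stood at 337 and 434 CPM in Ad-MEM40 against 390 and 424 CPM in Ad-Null, within 1.5-fold.

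In the C1q gate, Ad-MEM40 macrophages carried more acute-phase, interferon gamma and iron-handling transcripts. Of 9191 measured genes 89 were higher (0.968%) and 47 were lower (0.511%). Saa3 had 129 CPM in Ad-MEM40 and 29.2 CPM in Ad-Null, in 585 of 4531 and 107 of 1721 barcodes, a log2 ratio of 1.97, and without the top 1% of barcodes it had 47.3 and 5.17 CPM. Acod1 had 85.0 and 32.6 CPM, in 1403 and 306 barcodes. C3 had 58.0 and 23.5 CPM, the formyl peptide receptor gene Fpr2 had 21.3 and 7.34 CPM, and Clec4d had 107 and 55.3 CPM. Of the 23 measured genes of the acute-phase list 8 were higher and 0 lower, although its median log2 ratio was 0.19.

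The interferon gamma list had 7 of 23 genes higher in this gate and 0 lower, with a median log2 ratio of 0.48. Gbp2, a guanylate-binding protein of cell-autonomous defense, had 282 CPM in Ad-MEM40 and 153 CPM in Ad-Null. AW112010 had 419 and 205 CPM, and Nos2, the inducible nitric oxide synthase, had 21.6 and 9.77 CPM. Several Gbp genes are near-identical copies, so the split of UMIs among them is uncertain. The type I interferon list had 0 of 30 past 1.5-fold, and Isg15 had 542 and 493 CPM. Cxcl9, a chemokine that interferon gamma induces, had 513 and 533 CPM, with a UMI in 28.6% and 24.4% of thinned barcodes, against 19.0% and 18.8% in the Cd209a gate. In the mature DC gate 2 of the 30 type I genes were lower and 0 higher, with Oas1a at 27.2 and 49.4 CPM and Ifit1 at 43.7 and 70.8 CPM in Ad-MEM40 and Ad-Null, but their ratios were -0.46 and -0.43 with barcodes of more than 1 gate kept.

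Iron and heme genes were higher in 5 of 15 and lower in 0. Hmox1, heme oxygenase, had 594 CPM in Ad-MEM40 and 373 CPM in Ad-Null, Blvrb, biliverdin reductase B, had 329 and 192 CPM, and Fth1, the ferritin heavy chain, had 12416 and 7858 CPM. Erythroid markers summed to 10.8 CPM in Ad-MEM40 and 0.918 CPM in Ad-Null in this gate, with 0 and 2 of 6 at 0, and their part in these values was not tested. Folr2, a folate receptor of resident-type macrophages, had 110 and 60.8 CPM, and Il10 had 29.3 and 16.5 CPM. The genes Mgl2 and Ear2, linked to alternative activation, were lower, with Mgl2 at 115 and 227 CPM and Ear2 at 36.8 and 79.0 CPM, whereas Arg1 had 313 and 379 CPM and Retnla 477 and 386 CPM, within 1.5-fold. Ear2 belongs to a family of near-identical ribonuclease genes. Traf1 had 120 and 66.4 CPM, the single higher gene of the 16 CD40 and TRAF genes, and Cd40 had 53.4 and 42.4 CPM. With barcodes of more than 1 gate kept, Traf1 had a ratio of 0.50 and Il10 of 0.51.

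Tumor-cell and fibroblast markers were higher in the Ad-MEM40 side of the C1q gate as well. Its melanoma markers summed to 915 CPM in Ad-MEM40 and 584 CPM in Ad-Null and its fibroblast markers to 144 and 19.2 CPM. Cck, the highest gene at a log2 ratio of 3.06, had 1278 of its 2347 Ad-MEM40 UMIs in 1 barcode. Without barcodes of at least 1000 CPM of melanoma or fibroblast markers, Cck had a ratio of 0.39 and Sparc of 0.19, while Saa3 had 2.02 and Acod1 had 1.30.

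**Figure D4:**
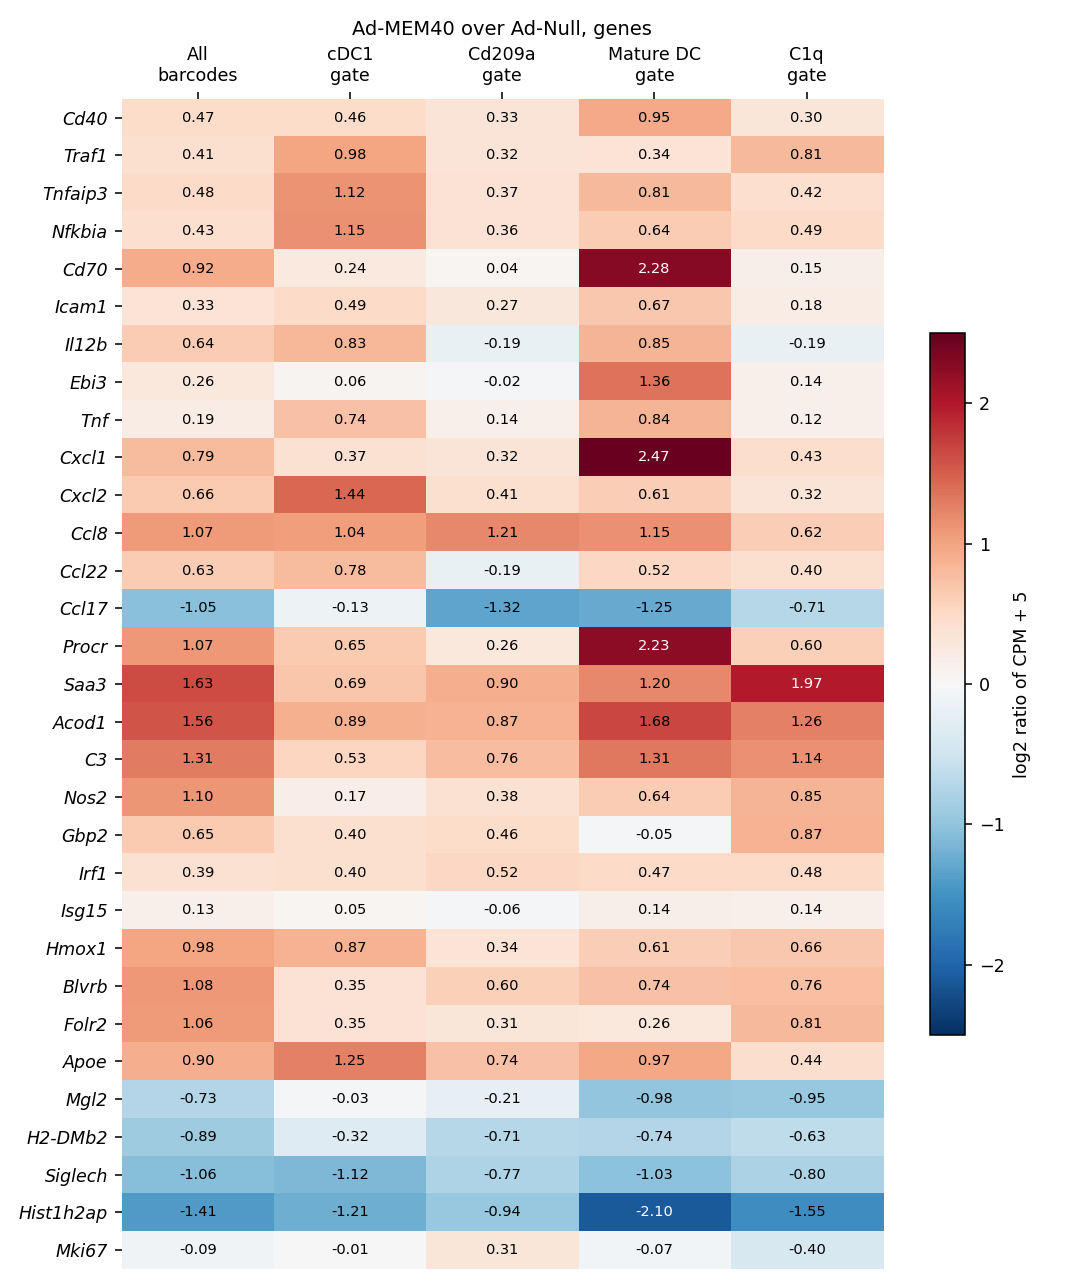
Log2 ratio of CPM + 5, Ad-MEM40 over Ad-Null, for 31 genes (rows) in all barcodes and in each gate (columns). Cd70, Cxcl1 and Procr are highest in the mature DC gate (2.28, 2.47 and 2.23), Nfkbia and Tnfaip3 in the cDC1 gate (1.15 and 1.12) and Saa3 in the C1q gate (1.97), whereas Hist1h2ap is below 0 in every column.

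A few genes differed in the same direction in all 4 gates. Nfkbia had log2 ratios of 1.15, 0.36, 0.64 and 0.49 in the cDC1, Cd209a, mature DC and C1q gates, and Tnfaip3 had 1.12, 0.37, 0.81 and 0.42. Irf1, a transcription factor induced by interferons and NF-kB, had 0.40, 0.52, 0.47 and 0.48, and Dusp1, a phosphatase also raised by tissue dissociation, had 0.63, 0.47, 0.51 and 0.46. Lyz2, Apoe, Plin2 and Blvrb, all abundant in macrophages, were above 0 in each as well. The dissociation and heat stress list had a median of 0.28 in the cDC1 gate, 0.27 in the Cd209a gate, 0.22 in the mature DC gate and 0.24 in the C1q gate. All 18 of its genes were higher in Ad-MEM40 at any size in the cDC1, Cd209a and C1q gates, and 13 of 18 in the mature DC gate. Past 1.5-fold were 3 in the cDC1 gate (Ier3, Hsph1 and Dusp1), 2 in the mature DC gate and 1 in the C1q gate. The part of dissociation in the ratios of Nfkbia, Tnfaip3 and Irf1 was not tested.

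Histone genes were lower in every gate, while no cell cycle gene was lower past 1.5-fold. Hist1h2ap had ratios of -1.21, -0.94, -2.10 and -1.55 in the cDC1, Cd209a, mature DC and C1q gates, and a UMI was found in 13.2% of thinned Ad-MEM40 barcodes and 20.7% of thinned Ad-Null barcodes, against 6.34% and 15.2% in the mature DC gate, where its CPM was lowest. Over all barcodes 8 of 18 measured replication-dependent histone genes were lower and 0 higher, with a median of -0.47. Of 20 cell cycle genes 0 were past 1.5-fold in either direction, and Mki67 had 170 CPM in Ad-MEM40 and 182 CPM in Ad-Null. In the C1q gate the cell cycle median was -0.23. Replication-dependent histone messages mostly lack a poly(A) tail, and their genes are near-identical copies, so single members are uncertain. Of the 678 measured genes with a median transcript under 600 bases 24 were lower, 9 of them histone genes, and 12 higher, against 0 lower and 5 higher of 534 genes with transcripts of 4000 bases or more. Ribosomal protein genes made up 15.7% of the UMIs of Ad-MEM40 and 17.7% of those of Ad-Null. The part of library preparation in these values was not tested.

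Few antigen presentation genes were past 1.5-fold. Of 22 genes of MHC class I presentation 0 were past 1.5-fold in any gate or over all barcodes. H2-Ab1, an MHC class II chain, had 5362 CPM in Ad-MEM40 and 6308 CPM in Ad-Null over all barcodes, and 8317 and 7984 CPM in the cDC1 gate. In the mature DC gate the 15 MHC class II genes summed to 22507 CPM in Ad-MEM40 and 27638 CPM in Ad-Null, with 1 of them above 0 in ratio and a median of -0.29. H2-DMb2 was lower by more than 1.5-fold in the Cd209a, mature DC and C1q gates, with ratios of -0.71, -0.74 and -0.63, the last being -0.58 with barcodes weighted equally. Of 17 measured inhibitory molecules Il10 alone was past 1.5-fold over all barcodes, and Cd274, which encodes PD-L1, had 174 and 128 CPM.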

How the data were processed

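Single cells were profiled by 10x Genomics 3′ sequencing. The authors deposited a matrix of UMI counts per gene and barcode for each library, and the counts were used as deposited. The matrix headers name Cell Ranger 6.0.0, whereas the submitters' processing notes name Cell Ranger 3.0, Seurat 4.0 and mm10. Coordinates and transcript lengths came from GENCODE M21, which holds 32235 of the 32285 identifiers.

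Barcodes with at least 500 genes and at most 10% mitochondrial UMIs were kept, and doublets were not removed. As an alternative, Scrublet in scanpy 1.11.5 scored doublets. Its automatic threshold marked 0 barcodes in Ad-MEM40 and 1459 in Ad-Null, so the barcodes with the highest scores were left out instead, 0.8% per 1000 barcodes (2278 in Ad-MEM40 and 791 in Ad-Null).

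UMIs were summed per library and gate and scaled to CPM with numpy 2.4.6 and pandas 2.3.3. Intervals (scipy 1.17.1) are exact at 95%. Thinning to 2000 UMIs left out 1200 and 359 shallower barcodes. The arithmetic was tested on simulated counts.

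Named genes were the 12 highest and 12 lowest ratios over all barcodes (mean of at least 20 CPM), the 8 highest and 8 lowest in each gate (also at least 100 UMIs), and the 8 most shared in each direction over the 4 gates. Gate, mitochondrial, ribosomal protein, haemoglobin, receptor segment, sex-linked, Gm and Rik genes were left out. List members past 1.5-fold and 18 genes tabulated by share of barcodes were also named, and others within 1.5-fold serve as examples of their list. The 36 lists held 513 genes, of which 4 were not used here. The members, lists and rules were chosen with earlier results of these data known. Promoters came from a RefSeq table for GRCm38.p6, whose starts matched an annotated transcript start for 78.8% of 20595 symbols. Values of a few genes are not reported here.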

Additional observations from a re-analysis of the deposited data

Results flagged for a closer look

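With 1 library a side no difference between gates was tested, and 4 genes lay past 1.5-fold in opposite directions in different gates. Cck had a log2 ratio of 3.06 in the C1q gate, -0.78 in the Cd209a gate and -1.92 in the mature DC gate, and single barcodes held most of its UMIs in the C1q gate of Ad-MEM40 (1278 of 2347) and the mature DC gate of Ad-Null (702 of 704). Ly6d, a surface protein gene of plasmacytoid cells and early lymphoid cells, had 0.60 in the mature DC gate and -0.98 in the cDC1 gate. Lyz1, a lysozyme gene nearly identical to Lyz2, had 1.05 in the mature DC gate and -0.85 in the Cd209a gate. Pf4, a platelet and macrophage chemokine gene, had 1.20 in the cDC1 gate and -0.66 in the Cd209a gate. Barcodes that did not pass the filter held 6 further Cd40lg UMIs in Ad-MEM40 and 0 in Ad-Null.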

How the results depend on the processing

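No paired analysis was possible because each side has 1 library. Leaving out barcodes with melanoma or fibroblast markers, and leaving out the top 1% of barcodes of each gene, were alternatives chosen after seeing the data. Of the genes named as past 1.5-fold, 37 of 61 over all barcodes, 21 of 54 in the cDC1 gate, 18 of 34 in the Cd209a gate, 36 of 77 in the mature DC gate and 37 of 58 in the C1q gate stayed past it under every alternative tried. With a pseudocount of 1 CPM, 230 genes were higher over all barcodes, 122 in the cDC1 gate, 68 in the Cd209a gate (72 lower), 529 in the mature DC gate (186 lower) and 149 in the C1q gate (75 lower). With 10 CPM, 17 were higher in the Cd209a gate, and 159 higher and 59 lower in the mature DC gate. A minimum of 20 CPM left 34 higher in the cDC1 gate, 16 higher and 27 lower in the Cd209a gate, 137 higher and 51 lower in the mature DC gate and 55 higher in the C1q gate, from fewer genes. With the Ad-Null gate shares 59 were higher over all barcodes, and without the highest doublet scores 23 in the cDC1 gate. In the Cd209a gate, 15 were higher with at least 1000 genes and at most 5% mitochondrial UMIs, 15 without melanoma or fibroblast marker barcodes and 64 with barcodes of more than 1 gate kept. In the mature DC gate 170 were higher with those kept, and 151 lower with barcodes weighted equally. The difference in gate share was -0.167 percentage points for cDC1 and -6.22 for Cd209a after thinning, -11.3 for Cd209a and 11.0 for C1q under the stricter filter, and 8.12 for C1q with at least 2 UMIs of each gate gene. These log2 ratios changed sign. With at least 2 UMIs of each gate gene, the Cd209a gate had Ptgds -0.25, Mlana -0.18, Pf4 1.03 and Saa3 -0.64, and the mature DC gate had Col1a2 -0.0057, Cck 0.17, F3 1.06 and Cxcl2 -0.0025. With barcodes of more than 1 gate kept, the Cd209a gate had Mlana -0.070 and Pf4 0.34. Without the top 1% of barcodes, it had Lyz1 0.21 and Pf4 0.25, and the mature DC gate had Cck 0.17, F3 0.31, Vcan 0.15 and Rrm2 -0.22. Without the highest doublet scores Fn1 was -0.0071 in the cDC1 gate and Ccr9 0.0098 in the mature DC gate. Without melanoma or fibroblast marker barcodes the mature DC gate had Col3a1 -0.038, Cck 0.092, F3 0.42 and Rrm2 -0.29. The cause of these changes was not tested. Depth limits low genes most in the mature DC gate, which held 6845219 UMIs in Ad-MEM40 and 5324075 in Ad-Null.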

Other observations

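Lipid-handling genes were higher in Ad-MEM40 over all barcodes, 9 of 14 measured members past 1.5-fold and 0 lower, with a median log2 ratio of 0.70. Nr1h3, which encodes the oxysterol receptor LXR alpha, had 23.4 CPM in Ad-MEM40 and 9.38 CPM in Ad-Null, and its known target Abca1, a cholesterol exporter, had 54.5 and 26.2 CPM. Apoe had 1122 and 597 CPM, and Trem2, a lipid-sensing receptor of macrophages, had 104 and 62.7 CPM. Of the 9, only Nr1h3, Abca1, Apoe and Plin2 stayed past 1.5-fold under every alternative tried. Inside the C1q gate 3 of 14 were higher, with Nr1h3 at 43.8 and 23.5 CPM, Abca1 at 104 and 67.4 CPM and Fabp4, a fatty acid carrier, at 44.0 and 23.2 CPM, whereas Trem2 had 216 and 186 CPM. In the mature DC gate 7 of 13 were higher, with Apoe at 383 CPM in Ad-MEM40 and 193 CPM in Ad-Null. Of these 7 only Apoe stayed past 1.5-fold under every alternative tried, and of the 3 in the C1q gate Nr1h3 and Fabp4 did. The 14 macrophage markers, which include Apoe and Trem2, summed to 3249 and 2104 CPM over all barcodes and to 872 and 659 CPM in the mature DC gate, with 0 and 1 of them at 0 in that gate, and their part in these values was not tested.

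Of the 18 measured hypoxia and glycolysis genes 0 were past 1.5-fold over all barcodes, with Slc2a1, the glucose transporter GLUT1, at 64.8 CPM in Ad-MEM40 and 62.5 CPM in Ad-Null. Among chemokine receptors, Cx3cr1 had 42.9 and 25.1 CPM over all barcodes, and Ccrl2, an atypical receptor that binds chemerin, had 39.0 and 20.6 CPM in the cDC1 gate.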
